A study of Mus musculus with 6 samples.

Results

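Complement genes were examined in CD11b+ cells sorted from mouse spleen. The 7 members, C1qa, C1qb, C1qc, C3, C3ar1, Cfb and Cfp, were taken by symbol, and all 7 were found among the 55335 genes of the count table and passed the expression filter that kept 14849 genes. RNA sequencing compared 3 libraries from wild-type (WT) mice with myocardial infarction (MI) and 3 libraries from WT mice with MI and renal denervation (MI+RDN), the interruption of the nerves of the kidney. Every group carried the infarct, and no group without infarct or with sham surgery was analysed here. The time after infarction, the age and sex of the mice, and whether a library held cells of 1 mouse or of a pool are not given in the labels. CD11b, the gate of the sort, is found on neutrophils, monocytes, macrophages and some dendritic, NK and B cells, so each value is an average over a mixture.

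Complement is a cascade of plasma and tissue proteins that tags microbes and dying cells. C1q, built from the products of C1qa, C1qb and C1qc, opens the classical pathway by binding antibody or debris and is made largely by tissue macrophages. C3 is the protein on which all pathways converge. Factor B, from Cfb, is the protease of the alternative pathway convertase, and properdin, from Cfp, stabilises that convertase. The receptor from C3ar1 senses C3a, the small fragment released when C3 is cut. Liver supplies most plasma complement, whereas myeloid cells make C1q and properdin and can make C3 and factor B locally.

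The 3 C1q genes are neighbours on mouse chromosome 4 and lie on the same strand. Because their values followed each other in all libraries, the sequence before the start sites of C1qb and C1qc is shown. It stands beside that of C3, which had a different pattern. No entry was found for C1qa. The windows come from RefSeq (build GRCm38.p6, minus strand, written 5′ to 3′ and ending at the last base before the start site, or, for C1qc, before the first annotated exon). They lie at chr4:136886201-136886450 for C1qb, chr4:136893066-136893164 for C1qc and chr17:57228137-57228386 for C3. Capitals mark a match, on either strand, to GAGGAA (a core of sites of PU.1, the myeloid ETS factor) or to TTGCNNAA (a C/EBP-type site).
C1qb: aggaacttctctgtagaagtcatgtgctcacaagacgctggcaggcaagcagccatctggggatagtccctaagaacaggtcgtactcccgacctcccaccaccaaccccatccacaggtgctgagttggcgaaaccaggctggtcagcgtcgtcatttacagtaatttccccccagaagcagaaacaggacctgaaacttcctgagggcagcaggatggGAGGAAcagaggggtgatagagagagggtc
C1qc: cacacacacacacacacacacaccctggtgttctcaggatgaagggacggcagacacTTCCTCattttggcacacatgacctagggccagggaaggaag
C3: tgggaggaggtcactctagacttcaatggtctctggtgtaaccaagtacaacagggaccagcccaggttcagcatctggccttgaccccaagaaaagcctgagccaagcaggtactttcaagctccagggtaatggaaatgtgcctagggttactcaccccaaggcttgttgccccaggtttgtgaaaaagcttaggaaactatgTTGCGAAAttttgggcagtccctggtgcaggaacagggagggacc

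Entries were found for 5 of the 7 members (C1qb, C1qc, C3, C3ar1 and Cfp). The window searched was the 250 bases before the RefSeq start site. An annotated exon begins inside it for C1qc (after 99 bases) and C3ar1 (after 246 bases). GAGGAA occurred 1 time in C1qb and 1 time in C1qc and 0 times in C3, C3ar1 and Cfp. The same letters occur in 23.3% of 32851 RefSeq windows of 250 bases. TTGCNNAA was found in C3 alone among the 5 members, and in 9.56% of all windows. The interferon response motif ISRE was found in 0 of the 5 members and in 2.98% of all windows. An NF-kB consensus was found in C1qc, in the part of the window that holds an annotated exon and is not printed, and in 7.25% of all windows. These matches did not overlap each other, and they describe letters and not binding.

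Library totals ranged from 21663440 to 28013900 counts. The members together took 0.119% to 0.165% of them. Itgam, which encodes CD11b, stood at 1011 to 1301 CPM (counts of a gene per 1000000 counts of its library, scaled by TMM factors) in MI and 1489 to 1666 in MI+RDN. Over all genes, 150 of 14849 passed the comparison of MI+RDN with MI (edgeR's quasi-likelihood test, Benjamini-Hochberg adjusted p under 0.05), which is 1.01%.

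None of the 7 members passed that test (edgeR). Cfb came closest, 1.80-fold higher in MI+RDN with groups that did not overlap. The C1q genes were 1.48-fold to 1.53-fold higher in MI by their fitted means, but 1 MI+RDN library stood as high as the MI libraries. C3, C3ar1 and Cfp had fold changes between 0.94 and 1.20. An unadjusted p under 0.05 was found for 1 of 7 members, Cfb, against 19.9% of all tested genes. Cfb also passed with the DESeq2 Wald test, which called 7.85% of all genes, while limma-voom called none of the members and 0.748% of all genes. Groups did not overlap in 1 of 7 members, against 26.2% of all tested genes (12.4% higher and 13.7% lower in MI+RDN).

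**Figure D1:**
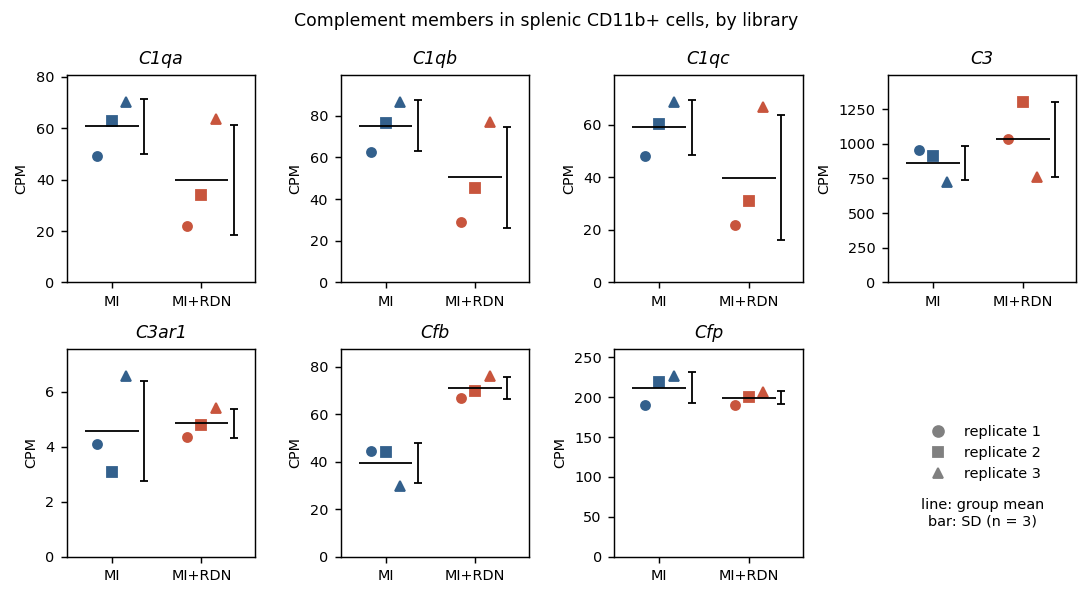
CPM (vertical axes, from 0) of each complement member in the 3 MI and 3 MI+RDN libraries (one point per library, shape giving the replicate number). Lines are group means and bars SD with n = 3. The Cfb points of MI+RDN (66.9 to 76.0) all lie above those of MI (29.8 to 44.3), and replicate 3 of MI+RDN lies among the MI libraries for C1qa, C1qb and C1qc.

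C1qa encodes the A chain of C1q. Its level was 49.1, 62.9 and 70.4 CPM in MI replicates 1 to 3 and 22.0, 34.2 and 63.6 CPM in MI+RDN replicates 1 to 3. Replicates 1 and 2 of MI+RDN lay below every MI library and replicate 3 lay within the MI range. The means were 60.8 ± 10.8 and 39.9 ± 21.4 CPM (SD, n = 3), a log2 fold change of -0.61 with SE 0.343 and a 95% interval of -1.40 to 0.18 (edgeR, Benjamini-Hochberg adjusted p = 0.365). C1qb, the B chain gene, read 62.4, 76.5 and 86.7 CPM in MI and 29.1, 45.3 and 76.8 CPM in MI+RDN. C1qc, the C chain gene, read 48.0, 60.1 and 68.7 CPM in MI and 21.9, 31.0 and 66.6 CPM in MI+RDN. Both repeated the order of C1qa, with MI+RDN replicate 1 lowest and MI replicate 3 highest. Their log2 fold changes were -0.58 (interval -1.30 to 0.14) for C1qb and -0.57 (interval -1.41 to 0.28) for C1qc, with adjusted p of 0.346 and 0.429 (edgeR, Benjamini-Hochberg). Intervals of this width hold both no change and a fall to under 0.5 of the MI level, so the test leaves the size of any C1q difference undetermined.

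The C1q values depended on the MI+RDN libraries taken. Without MI+RDN replicate 3 the mean log2 fold change of the 3 genes was -1.11, with adjusted p from 0.0679 to 0.0977 (edgeR, Benjamini-Hochberg). Without MI+RDN replicate 1 it was -0.29, against -0.58 with all libraries. No setting tried brought a C1q gene past the threshold.

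The 3 chains kept nearly fixed proportions across libraries. The log2 ratio of C1qa to C1qb lay between -0.41 and -0.27 in all 6 libraries, and that of C1qc to C1qb between -0.55 and -0.20. Profiles were set side by side as log2 CPM centred on the mean of the 6 libraries. C1qa and C1qb then differed by a root mean square of 0.055 log2 units and C1qa and C1qc by 0.062, whereas C1qa and Cfb differed by 0.944. These 6 points share their libraries, and the distances are descriptions.

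Markers of splenic macrophages are given beside C1q, and their part in the C1q values was not tested. The list of 18 splenic macrophage markers had 16 members with negative fold changes and 11 lower with no overlap, against 13.7% of all tested genes lower with no overlap. It had 0 past the threshold (edgeR), against 1.01% of all tested genes, and a median log2 fold change of -0.53, against 0.0080. Its summed level was 3101 to 3387 CPM in MI and 2556 to 3177 CPM in MI+RDN, and none of its markers was at 0. Csf1r, the receptor for the macrophage growth factor CSF1, and Slc40a1, the iron exporter ferroportin, were its most abundant genes, with log2 fold changes of -0.20 and 0.27. Relative to the mean of these markers on the log2 scale, C1q stood at -0.067, 0.11 and 0.072 in MI and at -0.45, -0.12 and 0.35 in MI+RDN. The difference of the group means was -0.11, smaller than the SD of 0.405 within MI+RDN, and it turned to 0.079 without MI+RDN replicate 1. In such bulk samples, fewer cells of a type and less RNA per cell cannot be told apart.

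The genes whose centred profiles were nearest to C1q, among 8097 candidates of at least 10 CPM, were Nr1h3, Hebp1 and Axl. Nr1h3, the lipid-sensing nuclear receptor LXR alpha, lay at a root mean square distance of 0.166 log2 units over the 6 libraries. Its level was 19.2, 20.9 and 23.0 CPM in MI and 9.66, 15.2 and 23.2 CPM in MI+RDN. Hebp1, a heme-binding protein, lay at 0.193 and Axl, a receptor tyrosine kinase for apoptotic cells, at 0.1998. Nr1h3 and Axl are also on the list of macrophage markers.

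**Figure D2:**
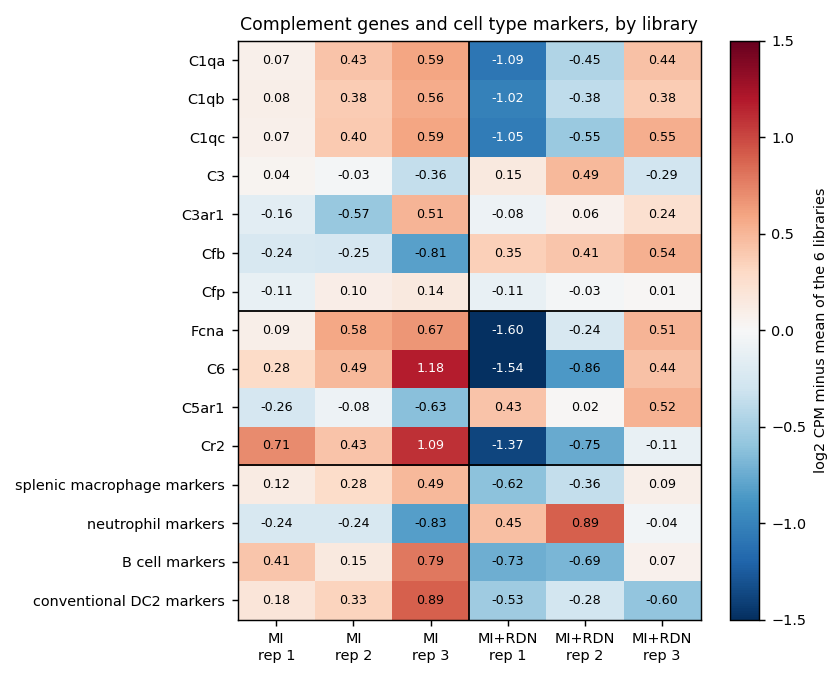
Log2 CPM of each row minus its mean over the 6 libraries (colour and printed value), for the members, for Fcna, C6, C5ar1 and Cr2, and for the mean of 4 marker lists. C1qa, C1qb and C1qc share 1 pattern, with -1.09 to -1.02 in MI+RDN replicate 1 and 0.38 to 0.55 in MI+RDN replicate 3, and Cfb shows negative values in all MI libraries and positive values in all MI+RDN libraries.

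C3 had the highest level of the members, in CPM and per length. It read 955, 913 and 726 CPM in MI and 1034, 1304 and 762 CPM in MI+RDN. The groups overlapped, since MI+RDN replicate 3 lay below MI replicates 1 and 2. The log2 fold change was 0.26 with SE 0.206 and an interval of -0.22 to 0.73 (edgeR, Benjamini-Hochberg adjusted p = 0.522), and it was 0.036 without MI+RDN replicate 2. Zfand2a, Plekhg1 and Cracr2a had the nearest centred profiles, at 0.037 to 0.064 log2 units over the 6 libraries.

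Cfb, the factor B gene, showed the clearest separation. It read 44.3, 44.1 and 29.8 CPM in MI and 66.9, 69.8 and 76.0 CPM in MI+RDN, so that the lowest MI+RDN library exceeded the highest MI library. Group means were 39.4 ± 8.34 and 70.9 ± 4.67 CPM (SD, n = 3), a log2 fold change of 0.85 with SE 0.157 and an interval of 0.48 to 1.21. The adjusted p was 0.0534, just above the threshold (edgeR, Benjamini-Hochberg; unadjusted p = 6.80e-04). It fell below the threshold without scaling factors (0.0421, where 3.2% of all genes passed), with genes of at least 5 CPM only (0.0477, where 2.83% passed) and with the DESeq2 Wald test (1.44e-04). By edgeR it stayed above with no filter (0.0957, where 21 of 24315 genes passed) and with the replicate block (0.0926, where 0.586% passed). It also did so with DESeq2 size factors (0.0562, where 123 genes passed) and upper-quartile factors (0.0508, where 159 passed). By limma-voom it was 0.0535, where 0.748% of all genes passed. With 1 library left out it was 0.0746 to 0.136 (edgeR, Benjamini-Hochberg), in fits where 0 to 67 genes passed. The log2 fold change stayed between 0.68 and 0.94 in all these settings. In the GENCODE M21 annotation, Cfb lies inside Gm20547, a gene model that also spans C2. Gm20547 was listed at 0 counts in all libraries, and how the authors assigned reads shared by both models is not given in the sources used here.

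Neutrophil markers were higher in MI+RDN beside Cfb. Of 12, 2 rose (Ly6g and Retnlg), where 1.01% of all tested genes passed in either direction (edgeR). With no overlap, 6 of the 12 were higher, against 12.4% of all tested genes. The median of the 12 on the log2 scale was 1.0, and none was at 0. Their summed levels were 15704 to 24631 CPM in MI and 28441 to 52034 CPM in MI+RDN. S100a9, a calcium-binding alarmin, and Csf3r, the G-CSF receptor, were the most abundant of them, with log2 fold changes of 0.99 and 0.34. Their part in the Cfb values was not tested. Cfb was highest in MI+RDN replicate 3 (0.54 above its mean on the log2 scale). The mean of the neutrophil markers was highest in MI+RDN replicate 2 (0.89) and near 0 in replicate 3 (-0.039). Single markers did not share 1 library order. Ngp read 11481 CPM in MI+RDN replicate 2 and 1385 CPM in replicate 3, whereas Csf3r read 4362 and 7781 CPM. The nearest centred profiles to Cfb were Klhdc4, a kelch-domain protein, Tarm1, an activating receptor of myeloid cells, and Fpr1, the receptor for bacterial formyl peptides, at 0.049, 0.052 and 0.088 log2 units over the 6 libraries. Fpr1 read 63.6 to 102 CPM in MI and 137 to 159 CPM in MI+RDN.

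Cfp, the properdin gene, was the steadiest member. It read 190, 219 and 227 CPM in MI and 190, 200 and 207 CPM in MI+RDN. The log2 fold change was -0.09 with SE 0.098 (edgeR, Benjamini-Hochberg adjusted p = 0.647). Its interval ran from -0.32 to 0.14, or 0.803 to 1.10 as a fold, the narrowest of the 7. Ppp1r7, Scpep1 and Dnaja3 had the nearest profiles, at 0.019 to 0.031 log2 units over the 6 libraries.

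C3ar1, the C3a receptor gene, was the scarcest member, with 68 to 176 counts per library. It read 4.09, 3.07 and 6.58 CPM in MI and 4.35, 4.79 and 5.42 CPM in MI+RDN, and all MI+RDN libraries lay inside the MI range. Its log2 fold change of 0.08 (interval -0.60 to 0.75; edgeR, Benjamini-Hochberg adjusted p = 0.906) ranged from -0.14 (without MI replicate 2) to 0.44 (without MI replicate 3) with 1 library left out. Without scaling factors, which lowered the median of all genes to -0.13, it was -0.068. Prdx4, Mrpl1 and Faap20 had the nearest profiles, at 0.156 to 0.166 log2 units.

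Levels of different genes were set side by side as counts per kilobase of exon, scaled to sum to 1000000 over all genes in each library. By mean level over the 6 libraries the order was C3 (528 ± 106, SD), Cfp (340.3 ± 41.0), C1qb (167 ± 63.2), C1qa (140 ± 56.6), C1qc (74.0 ± 30.4), Cfb (55.0 ± 14.8) and C3ar1 (3.13 ± 0.815). The order of neighbours was the same in 6 of 6 libraries for each adjacent pair except C1qc and Cfb, where C1qc was the higher in 4. C1qb and C1qa differed by less than their spread between libraries, as did C1qc and Cfb. With the length of the longest transcript in place of all exons, C1qc stood at 95.9 beside 113 for C1qa and 135 for C1qb.

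**Figure D3:**
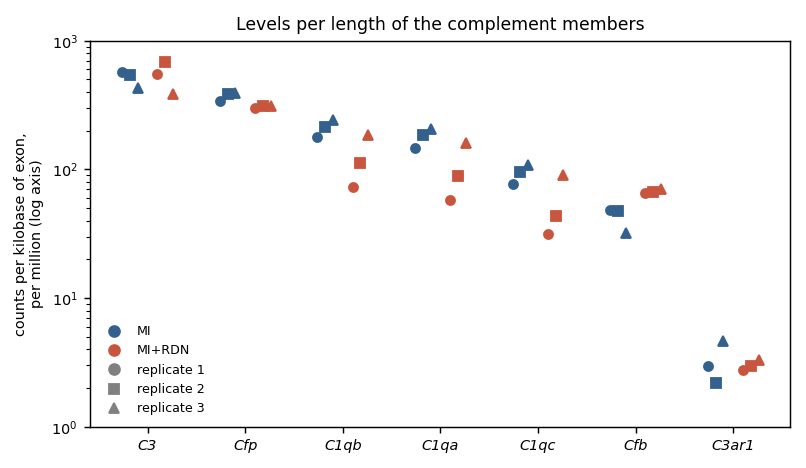
Counts per kilobase of exon, scaled to sum to 1000000 in each library (log axis), of the 7 members in each library, coloured by group with the shape giving the replicate number. C3 and Cfp are highest, C3ar1 is lowest at 2.18 to 4.62, and Cfb and C1qc change places between the MI libraries and MI+RDN replicates 1 and 2.

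The contrast between C1q and the remaining members was read as a log2 ratio within each library, taking the mean log2 CPM of the 3 C1q genes. The ratio of C1q to Cfb was 0.25, 0.58 and 1.33 in MI and -1.47, -0.94 and -0.14 in MI+RDN. By this mean over the 3 chains, C1q was above Cfb in CPM in every MI library and below it in every MI+RDN library. In MI+RDN replicate 3, C1qb alone (76.8 CPM) was level with Cfb (76.0 CPM). Per length of exon the order differed, since C1qa, C1qb and C1qc (160, 184 and 90.0) all exceeded Cfb (70.2) in MI+RDN replicate 3. In MI+RDN replicate 2, C1qa and C1qb (88.1 and 112) exceeded Cfb (66.3) and C1qc (43.1) did not. In MI+RDN replicate 1, C1qb (73.5) exceeded Cfb (65.2), and C1qa and C1qc (58.2 and 31.3) did not. The means were 0.72 ± 0.551 and -0.85 ± 0.667 (SD, n = 3), a difference of -1.57 that ran from -1.92 to -1.26 with 1 library left out. The ratio of C1q to C3 differed by -0.94, that to C3ar1 by -0.85 and that to Cfp by -0.62, and in these 3 ratios the groups overlapped through MI+RDN replicate 3. Without that library the 3 differences were -1.54, -1.17 and -0.99 in the same order, and without MI+RDN replicate 1 they were -0.57, -0.57 and -0.30. The difference for C3ar1 was -0.58 without MI replicate 2. The differences come from members picked with earlier results known and were given no test. They use means of log2 values, whereas the fitted fold changes compare means of counts. On means of log2 values the C1q genes differed by -0.73 to -0.68, against -0.61 to -0.57 in the fit.

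**Figure D4:**
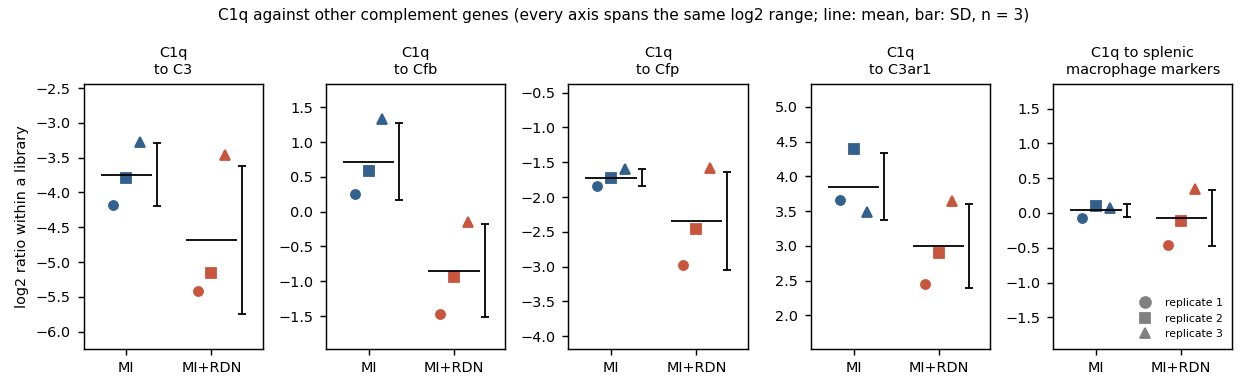
Log2 ratio of C1q (mean of C1qa, C1qb and C1qc) to each other member and to the mean of the splenic macrophage markers, by library. Lines are group means and bars SD with n = 3. The groups separate for the ratio to Cfb alone. The ratio to macrophage markers runs from -0.067 to 0.11 in MI and from -0.45 to 0.35 in MI+RDN.

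The wider complement list held 47 genes, of which 25 passed the filter, 10 had counts under it and 12 were at 0 in all libraries. A count of 0 allows up to 0.110 to 0.135 CPM per library, for counting error only. None of the 25 passed the test in either direction (edgeR), against 1.01% of all tested genes. An unadjusted p under 0.05 (edgeR) was found for 8, against 19.9% of all tested genes. DESeq2 called 3 higher and 2 lower (against 7.85%) while limma-voom called 0 (against 0.748%). Positive fold changes stood in 14 and negative ones in 11, with a median log2 fold change of 0.19. Groups did not overlap in 10 of them, against 26.2% of all tested genes, with 7 higher and 3 lower in MI+RDN.

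Among initiators of the classical and lectin pathways, 6 of 14 were measured and 0 passed (edgeR), against 1.01% of all tested genes. Fcna, a ficolin made by macrophages, read 31.0, 43.6 and 46.3 CPM in MI and 9.58, 24.6 and 41.4 CPM in MI+RDN, where MI+RDN replicate 1 was lowest and replicate 3 highest, as for C1q. Fcnb, the ficolin of neutrophil granules, read 22.9 to 39.8 CPM in MI and 51.7, 141 and 22.5 CPM in MI+RDN, where replicate 2 stood apart. Its log2 fold change of 1.11 was 0.14 without that library. C4b, which carries the classical cascade on after C1, read 12.5 to 21.5 CPM in MI and 22.1 to 26.3 CPM in MI+RDN (log2 fold change 0.55, edgeR Benjamini-Hochberg adjusted p = 0.195), and may share reads with its close copy C4a. The C1r and C1s proteases that complete C1 were scarce, with C1ra at 2.98 to 4.50 CPM and C1rb, C1s1 and C1s2 at 43, 4 and 4 counts in all libraries together. Masp1, Mbl1 and Mbl2 of the lectin pathway were at 0.

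Cfd, the protease that cuts factor B, was the other gene listed for the alternative pathway and was at 0 counts in all libraries. In the terminal pathway 3 of 7 genes were measured and 0 passed (edgeR), against 1.01% of all tested genes. C7, C8a, C8b and C9 were at 0. C6 read 14.6, 16.9 and 27.4 CPM in MI and 4.08, 6.58 and 16.4 CPM in MI+RDN (log2 fold change -1.13, interval -2.24 to -0.02; edgeR, Benjamini-Hochberg adjusted p = 0.243). The fold change was -1.89 (adjusted p = 0.0679) with MI+RDN replicate 3 left out and -0.78 with replicate 1 of that group left out (edgeR, Benjamini-Hochberg). Its library order within MI+RDN was that of C1q. Hc, which encodes C5, read 0.676 to 1.36 CPM in MI and 1.20 to 4.24 CPM in MI+RDN, and C8g stayed under 1 CPM.

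Receptors were the best represented group, with 10 of 11 measured and 0 past the threshold (edgeR), against 1.01% of all tested genes. With no overlap, 4 were higher and 3 lower in MI+RDN, against 12.4% and 13.7% of all tested genes. An unadjusted p under 0.05 (edgeR) was found for 5 of the 10, against 19.9% of all tested genes. Itgam and Itgb2, which pair as complement receptor 3 for fragments of C3, had log2 fold changes of 0.50 and 0.25, and Lrp1, a scavenger receptor, -0.25. Adjusted p was 0.109, 0.303 and 0.338 in that order (edgeR, Benjamini-Hochberg). Cr2 and C5ar1, named after their values were seen, had the lowest and highest fold change of the group. Cr2, the complement receptor CD21 of B cells and follicular dendritic cells, read 51.4 to 81.5 CPM in MI and 14.7 to 35.4 CPM in MI+RDN (log2 fold change -1.43, edgeR Benjamini-Hochberg adjusted p = 0.0671). It passed without scaling factors (0.0408), with the DESeq2 Wald test (6.25e-05) and with the replicate number as a block (0.0464, where 0.586% of all genes passed). It did not pass with limma-voom, under the other scaling factors and filters tried, or with 1 library left out (where 0 to 67 genes passed). Beside it, 7 of 8 B cell markers had negative fold changes, with a median of -0.97 on the log2 scale over the 8. These 7 were lower with no overlap, against 13.7% of all tested genes. None of the 8 passed the threshold (edgeR), against 1.01% of all tested genes. Their summed levels were 4186 to 7959 CPM in MI and 5243 to 11659 CPM in MI+RDN. Ighm made up most of the sum, with a log2 fold change of 0.37, and Cd79a, next in level, had -0.85. The part of the B cell markers in the Cr2 values was not tested. C5ar1, the C5a receptor of neutrophils and monocytes, read 237 to 348 CPM in MI and 372 to 527 CPM in MI+RDN (log2 fold change 0.64, edgeR Benjamini-Hochberg adjusted p = 0.112).

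Of 14 regulators that protect host cells, 6 were measured and 0 passed (edgeR), against 1.01% of all tested genes. Their log2 fold changes ran from -0.40 to 0.43. Cr1l, the rodent membrane regulator Crry, read 112 to 117 CPM in MI and 118 to 141 CPM in MI+RDN. Cd55, which speeds the decay of convertases, read 24.4 to 38.6 CPM in MI and 19.4 to 32.4 CPM in MI+RDN (log2 fold change -0.40, interval -0.95 to 0.15, and -0.70 without MI+RDN replicate 2). Serping1, the C1 inhibitor, had 7 counts in all libraries together, and Cfi and Vtn were at 0.

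**Figure D5:**
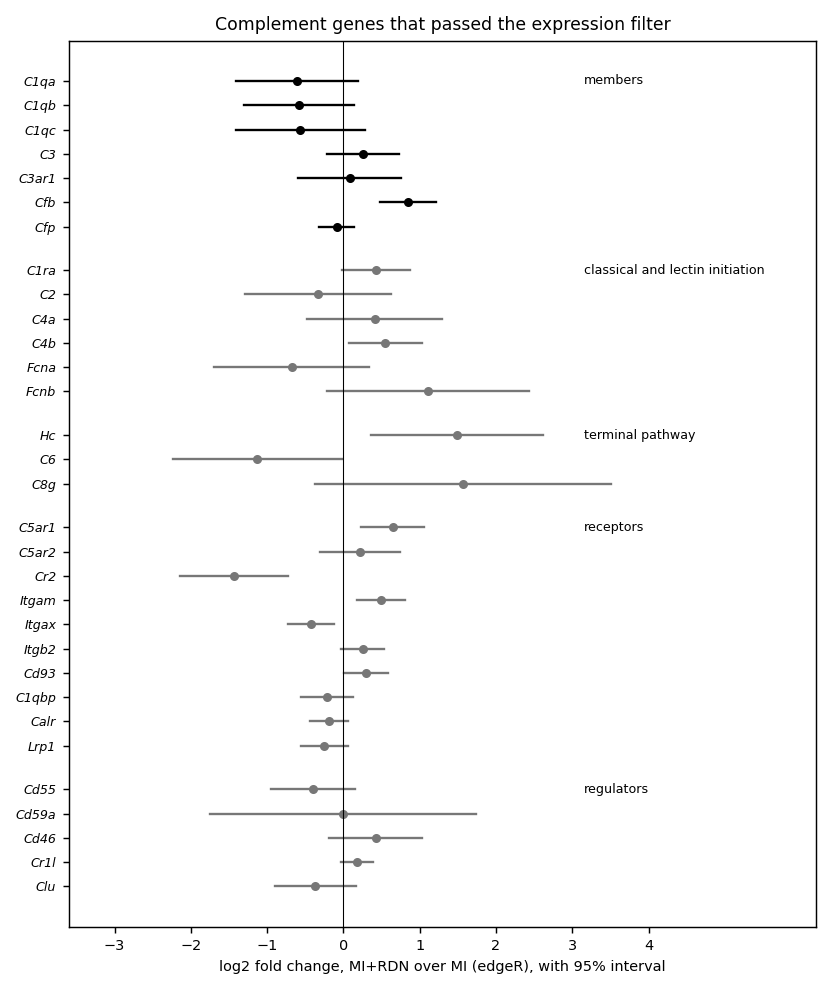
Log2 fold change of MI+RDN over MI with its 95% interval for the 7 members and for the measured genes of the wider list that are reported here, ordered by role. Values right of 0 are higher in MI+RDN. Among members the interval of Cfb (0.48 to 1.21) lies above 0 and the other 6 span 0, and in the wider list those of C4b, Hc, C5ar1, Itgam and Cd93 lie above 0 and those of C6, Cr2 and Itgax below it.

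The remaining marker lists describe the mixture behind these values. Their medians on the log2 scale are given with the most abundant pair of markers of each. Over all tested genes, 1.01% passed the threshold in either direction (edgeR). For conventional DC2 (Sirpa, Flt3) the median was -0.91, and 3 of 8 fell (Cd209a, Clec10a and Zbtb46). For T cells (Trac, Trbc2) it was -1.21, and Cd3d fell, 1 of 5. For Ly6C-high monocytes (Chil3, Fn1) it was -0.16, and Ly6c2 rose, 1 of 7. None passed for Ly6C-low monocytes (Itgal, Ace; -0.28), NK cells (Gzma, Nkg7; -0.071), erythroid cells (Hbb-bs, Hba-a1; -1.29), platelets (Itga2b, Ppbp; -0.078) or stroma and endothelium (Pecam1, Pdgfrb; -0.33), by edgeR. Of the stromal genes, Col3a1 and Pdgfra had 9 and 8 counts in all libraries together. The part of these cells in the complement values was not tested.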

How the data were processed

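RNA of splenic CD11b+ cells was measured in 6 libraries, 3 per group. The authors deposited 1 table of raw counts per Ensembl gene. FastQC 0.11.2, STAR and the build GRCm39 are named per the submitters' processing notes, and libraries were strand-specific TruSeq per the labels' protocols. The sources used here do not name the counting tool, annotation release, strand setting or handling of shared reads. Symbols (55154 of 55335 IDs) and exon lengths came from GENCODE M21 on GRCm38, an older build.

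The members and lists were chosen with earlier results of these data known. Differences were fitted on the counts with edgeR 4.0.16 under R 4.3.3 (filterByExpr, TMM factors, quasi-likelihood F test, Benjamini-Hochberg adjustment over all 14849 tested genes at 0.05). CPM uses TMM-scaled library sizes, and log2 CPM a prior count of 2. Each SE was obtained from the fold change and its F statistic, and intervals are at 95%. The common biological coefficient of variation was 20.7%. The design text calls the replicates biological without saying whether animals were pooled, so p-values measure the spread between these libraries.

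Named were the members, from each role of the wider complement list the 3 measured genes with the highest mean CPM and any past the threshold, the 2 most abundant markers of each cell type list, and the 3 genes of at least 10 CPM with the nearest profiles. Markers past the threshold, Cr2, C5ar1, and further genes listed by count or at 0 were named after their values were seen. A gene and a motif that these rules cover are not reported here. The procedure was tested on simulated data. Alternatives used DESeq2 1.42.0 and limma 3.58.1 among others. Figures were drawn with matplotlib 3.10.9.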

Additional observations from a re-analysis of the deposited data

How the results depend on the processing

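The number of genes past the threshold (150) was 475 without scaling factors (62 up and 413 down against 44 and 106; this moved the all-gene median to -0.13 on the log2 scale), 21 with no filter, 290 for genes averaging 5 CPM or more, 1165 with the DESeq2 Wald test (561 higher and 604 lower), 87 with the replicate block and 0 to 67 with 1 library left out. edgeR called 0 genes without MI replicate 3 (2084 had an unadjusted p under 0.05) and 0 without replicate 1 of MI+RDN (2323 had one). The deviations of same-numbered libraries from their group means had correlations across genes of 0.018, -0.065 and 0.064, so the numbers were not taken to pair the libraries; MI replicates 1 and 2 did not correlate best with their own number. Cfb passed without scaling factors (0.72 on the log2 scale), among genes averaging 5 CPM or more (0.82) and with the DESeq2 Wald test (0.85), which brought the number of members that were higher from 0 to 1 in each. C3ar1 turned to -0.068 without scaling factors and ranged from -0.14 to 0.44 with 1 library left out; it fell under that stricter filter and was not tested there. In the wider list, 1 gene was lower without scaling factors and 1 with the replicate block (Cr2 in both), and the DESeq2 Wald test gave 3 higher (Hc, C5ar1 and Itgam) and 2 lower (Cr2 and Itgax), with Hc at 1.49 and Itgam at 0.50. The median of the wider list was 0.052 without scaling factors and 0.11 to 0.25 with 1 library left out. By the longest transcript, the level per length was 45.6 for Cfb and 291 for Cfp, against 55.0 and 340.3. The causes of these shifts were not tested. C1q, C3 and Cfp kept their sign and stayed short of the threshold under every alternative run. Among the members C3ar1 had the fewest counts, 68 in its lowest library.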
